A study of Mus musculus with 48 samples.

Results

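Cog3 and Copa encode proteins of transport to and within the Golgi apparatus, and each carries an adenosine whose editing to inosine changes an isoleucine codon into a valine codon. All positions listed for either gene were taken, 8 of the 48715 positions in the deposited tables. Of these, 6 lie in Cog3 and 2 in Copa. Positions were taken by gene name and not by level, but the genes were chosen with earlier results of these data known. Editing was measured by mmPCR-seq, in which cDNA around known editing sites is amplified in multiplexed PCR pools and the amplicons are sequenced. The 48 libraries covered 8 tissues of male C57BL/6 mice aged 12 weeks: bone marrow, brain, heart, kidney, liver, small intestine, spleen and thymus. The written protocol of the mmPCR-seq lists the other 7 tissues and not liver, so the liver libraries are taken as liver from their sample labels. Each tissue held 3 biological replicates of Adar1+/+ Ifih1-/- mice (WT below) and 3 of Adar1E861A/E861A Ifih1-/- mice (E861A below). Adar1 encodes the editing enzyme ADAR1, and the E861A allele makes an ADAR1 protein without editing activity. Both genotypes lack Ifih1, the gene for the double-stranded RNA sensor MDA5, so no group here had MDA5. Bone marrow was described as haematopoietic cells, and the other organs were homogenised whole, so each level is a mean over all cell types of the organ. The files hold editing levels and no expression values, so tissue identity could not be checked against marker genes.

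Adenosine deaminases acting on RNA, ADAR1 and ADAR2, convert adenosine to inosine in double-stranded RNA, and the ribosome reads inosine as guanosine. Cog3 is a subunit of the conserved oligomeric Golgi (COG) complex, which tethers vesicles that return resident proteins between Golgi cisternae. Copa is the alpha subunit of the coatomer (COPI), the coat of vesicles that carry proteins from the Golgi back to the endoplasmic reticulum. ADAR2 is best known for recoding sites in neurons, and ADAR1 for the editing of duplexes formed by repeat sequences.

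The Cog3 site lies on chromosome 14 at position 76119526, minus strand (mm9), in exon 17 of 23, at chr14:76119499-76119619. Editing of the first base of the codon Att gives Gtt and the protein change I635V in a protein of 827 residues. The Copa site lies on chromosome 1 at position 174022479, plus strand (mm9), in exon 6 of 33, at chr1:174022376-174022485. There the same codon, Att, becomes Gtt, which gives I164V in a protein of 1223 residues. The Cog3 adenosine lies 27 bases before the end of its exon, and the Copa adenosine lies 6 bases before the end of its exon. The exon of each gene is shown in the direction of the RNA because both sites, their neighbours and the splice junction can be read from it. The edited adenosine is in capitals, and the Copa sequence continues for 40 bases into the following intron, to position 174022525.
Cog3: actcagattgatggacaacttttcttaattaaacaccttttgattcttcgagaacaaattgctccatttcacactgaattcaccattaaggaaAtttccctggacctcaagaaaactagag
Copa: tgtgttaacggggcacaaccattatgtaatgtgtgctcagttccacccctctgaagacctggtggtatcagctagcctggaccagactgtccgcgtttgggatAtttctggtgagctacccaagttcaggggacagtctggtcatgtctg

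The Cog3 adenosine followed an A and the Copa adenosine followed a T, and both preceded a T. Among the 7339 positions that passed the minimum of 100 reads somewhere, 28.3% followed an A, 19.3% followed a T and 18.0% preceded a T. All 36 listed isoleucine-to-valine positions preceded a T, which the genetic code fixes because every isoleucine codon begins with AT. The T after the Cog3 and Copa adenosines is therefore not a trait of these sites. Of the 36, 11 followed an A and 13 followed a T. RNAfold was run on genomic RNA from 4 windows around each site, from 50 bases before and 100 bases after it up to 150 before and 500 after. In all 4 windows the Copa adenosine was paired with a U 13 bases downstream, 7 bases into the intron. This pair lay within a hairpin whose longest unbroken stem had 13 base pairs and crossed the junction of exon and intron. The arms of that stem are in capitals in the stretch chr1:174022455-174022518, of which 33 bases are intron.
Copa stem: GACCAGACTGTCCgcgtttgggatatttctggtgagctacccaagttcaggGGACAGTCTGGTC
The Cog3 adenosine was unpaired in all 4 predicted structures, and the longest unbroken stem around it had 3 to 5 base pairs. These are minimum free energy predictions and no structure was measured.

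The other coding positions of the genes lie in the same exons as the recoding sites. In Cog3, 3 more coding positions lie within the same exon, and they are shown in capitals together with the recoding adenosine in the stretch chr14:76119505-76119536.
Cog3 positions: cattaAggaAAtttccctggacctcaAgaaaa
In the order of the RNA these are a lysine-to-arginine position (76119531, K633R), a silent glutamate position (76119527, residue 634), the recoding site (76119526, I635V) and a further lysine-to-arginine position (76119510, K640R). The remaining 2 Cog3 positions, 76110706 and 76110941, are intronic and had 0 reads in all 48 libraries. The second Copa position, 174022449, would change a serine to glycine (S154G) and lies in the same exon as I164V.

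Editing levels were taken as edited reads over all reads where a position had more than 100 reads. The reads summed over all positions ranged from 1861831 to 11394093 per library. Cog3 I635V had 2236 to 7662 reads in 47 libraries, and the first E861A small intestine replicate had 1 read and was left out. Copa I164V had 813 to 7447 reads in 46 libraries. The first E861A small intestine replicate held 2 reads there and the second WT small intestine replicate 0, so both were left out. The 95% Wilson interval of a single library was at most 4.14 percentage points wide at Cog3 I635V and at most 5.29 points wide at Copa I164V. PCR reads are not independent molecules, so these intervals and the limits for a count of 0 cover counting error only. In mean level over all edited positions, 3 libraries labelled WT stood at or near the E861A libraries of their tissue, against their label. WT heart replicate 2 had 2.04%, beside 1.47% to 1.83% in E861A heart. WT small intestine replicate 2 had 0.978%, inside the E861A range of 0.506% to 1.33%, and WT thymus replicate 3 had 0.991%, beside 0.454% to 0.773% in E861A. The other libraries labelled WT in these tissues had means of 5.08% to 11.1%. The genotype of these 3 libraries was not tested in another way. Each WT mean in heart, small intestine and thymus holds such a library. The tissue means below include them, and the tests that rest on them are also given without them.

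Cog3 I635V was edited in all 8 tissues and in each of the 47 libraries, from 4.58% to 66.4% of reads. Liver was highest. Its WT replicates had levels of 65.0%, 60.7% and 66.4%, and its E861A replicates 62.8%, 60.8% and 60.4%. Kidney followed with 65.0%, 55.9% and 61.2% in WT and 57.0%, 57.0% and 58.3% in E861A. Heart had 47.8%, 46.5% and 53.2% in WT and 57.9%, 49.6% and 54.9% in E861A. In these 3 organs the genotypes overlapped, and each of the 18 libraries was above every library of the other 5 tissues.

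Brain, spleen, thymus and bone marrow formed a lower range. Brain had 27.0%, 28.6% and 26.5% in WT and 21.1%, 26.6% and 28.8% in E861A. Spleen had 26.5%, 32.2% and 17.8% in WT and 18.3%, 22.0% and 23.2% in E861A. The genotypes overlapped in both tissues. Thymus had 22.5%, 18.6% and 18.5% in WT and 14.2%, 17.8% and 23.5% in E861A. Bone marrow had 15.8%, 21.3% and 14.2% in WT and 21.9%, 15.7% and 15.5% in E861A. The genotypes overlapped in both of these as well. Small intestine was the most variable tissue, with 11.9%, 35.9% and 25.7% in WT, and 7.69% and 4.58% in the 2 E861A libraries that had reads. There the E861A libraries lay below all 3 WT libraries.

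**Figure D1:**
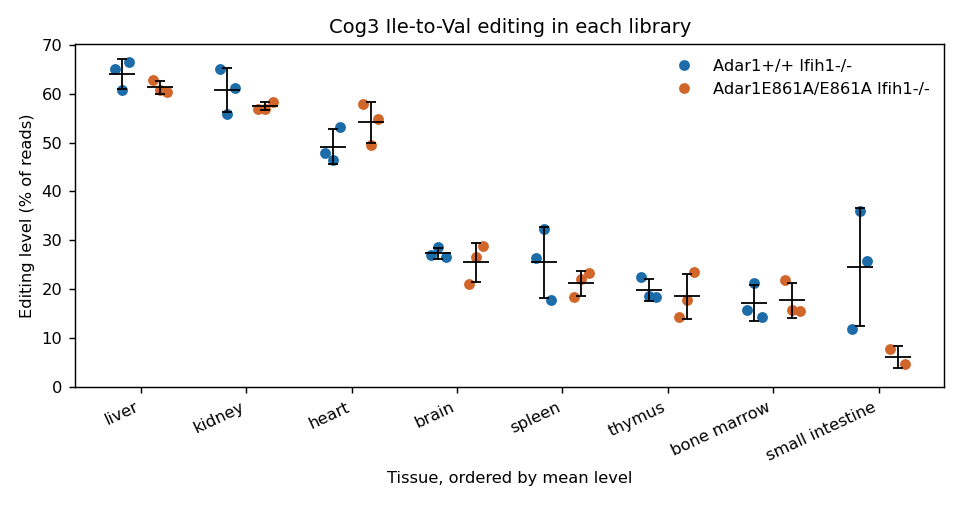
Editing level at Cog3 I635V in each library, as the percentage of reads (y axis), by tissue in the order of the mean level (x axis). Points are libraries, horizontal bars and whiskers are the mean and SD of a genotype within a tissue (2 E861A points in small intestine, 3 elsewhere). Liver, kidney and heart lie above 46%, and all other tissues below 36%.

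The mean levels over both genotypes were 62.7% ± 2.54 (SD, n = 6) in liver, 59.1% ± 3.42 (SD, n = 6) in kidney and 51.6% ± 4.41 (SD, n = 6) in heart. They were 26.4% ± 2.78 (SD, n = 6) in brain, 23.3% ± 5.42 (SD, n = 6) in spleen, 19.2% ± 3.37 (SD, n = 6) in thymus, 17.4% ± 3.29 (SD, n = 6) in bone marrow and 17.2% ± 13.2 (SD, n = 5) in small intestine. Tissues were compared pairwise by a two-sided exact permutation test that exchanged tissue labels within each genotype, with Benjamini-Hochberg adjustment over the 28 pairs. Of these pairs, 19 differed (adjusted p under 0.05), and 20 without the 3 libraries labelled WT of low mean level. Among the 7 pairs of neighbours in the order, kidney exceeded heart (exact permutation test, adjusted p = 0.0221) and heart exceeded brain (exact permutation test, adjusted p = 0.00875). Liver and kidney did not differ beyond their spread (exact permutation test, adjusted p = 0.070), nor did brain and spleen (exact permutation test, adjusted p = 0.274). The steps from spleen through thymus and bone marrow to small intestine also did not exceed the spread. Whether libraries of different tissues came from the same mice is not given, and the libraries were treated as independent. A limma F test over the 8 WT tissues, fitted across all 938 positions that could be tested, gave an adjusted p of 4.2e-05 for Cog3 I635V, in a test that called 14.4% of positions, and 0.000121 without those 3 libraries.

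Copa I164V had a wider relative range, from 0.0% to 48.9%. Liver was again highest, with 28.7%, 31.6% and 30.3% in WT and 32.7%, 28.6% and 30.7% in E861A. Kidney had 9.48%, 9.79% and 10.5% in WT and 10.6%, 7.25% and 9.20% in E861A. Brain had 9.64%, 3.42% and 5.97% in WT and 5.66%, 9.62% and 8.35% in E861A. The genotypes overlapped in all 3 organs. Heart replicates differed far more among themselves: WT had 17.8%, 48.9% and 22.7%, and E861A had 18.5%, 28.0% and 0.0%. The second WT heart replicate rested on 1367 reads and the third E861A heart replicate on 0 edited of 1197 reads, which allows a share of up to 0.251%. The second WT heart replicate was also the library labelled WT whose mean level over all positions was near that of E861A. Both libraries had fewer than 10 reads at the neighbouring S154G position, as did the first E861A heart replicate, whereas the other 3 heart libraries had 530 to 1646 reads there. The part of this uneven coverage in the heart values was not tested.

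**Figure D2:**
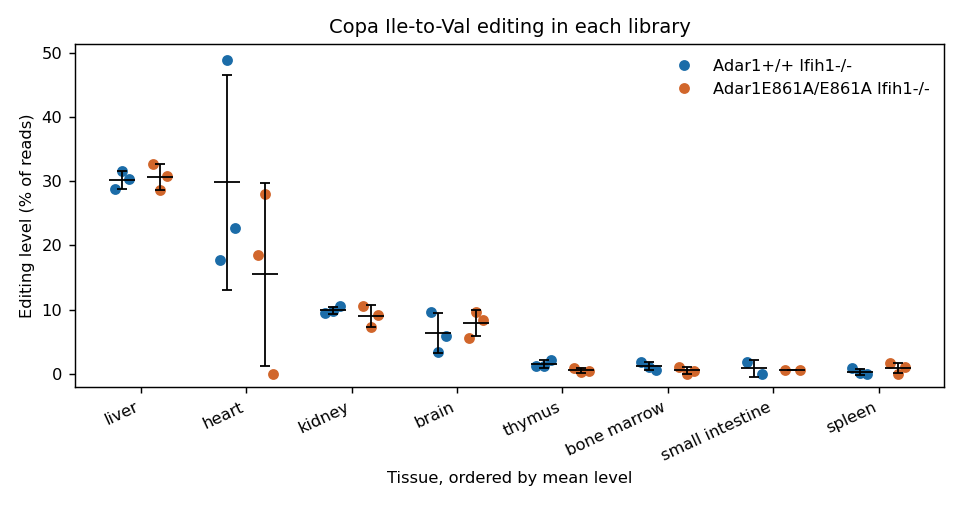
Editing level at Copa I164V in each library, as the percentage of reads (y axis), by tissue in the order of the mean level (x axis). Points are libraries, and horizontal bars and whiskers are the mean and SD of a genotype within a tissue. Liver libraries lie between 28.6% and 32.7%, heart libraries spread from 0.0% to 48.9%, and the 4 tissues on the right stay at or below 2.20%.

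In the remaining 4 tissues Copa I164V stayed at or below 2.20%. Thymus had 1.20%, 1.24% and 2.20% in WT and 0.967%, 0.347% and 0.401% in E861A, and bone marrow had 1.93%, 1.10% and 0.642% in WT and 1.15%, 0.0% and 0.546% in E861A. Spleen had 0.913%, 0.168% and 0.0% in WT and 1.69%, 0.0663% and 1.09% in E861A, and small intestine had 1.87% and 0.0% in WT and 0.604% and 0.625% in E861A. In thymus each E861A library lay below each WT library. Along with the heart library, 3 libraries had 0 edited reads. These were the second E861A bone marrow replicate (0 of 892 reads, which allows a share of up to 0.336%), the third WT small intestine replicate (0 of 4346 reads, up to 0.0690%) and the third WT spleen replicate (0 of 813 reads, up to 0.369%).

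The mean Copa I164V levels were 30.4% ± 1.60 (SD, n = 6) in liver, 22.6% ± 15.9 (SD, n = 6) in heart, 9.47% ± 1.22 (SD, n = 6) in kidney and 7.11% ± 2.50 (SD, n = 6) in brain. They were 1.06% ± 0.678 (SD, n = 6) in thymus, 0.894% ± 0.657 (SD, n = 6) in bone marrow, 0.775% ± 0.786 (SD, n = 4) in small intestine and 0.654% ± 0.685 (SD, n = 6) in spleen. Of the 28 pairs of tissues, 18 differed in the exact permutation test, and 17 without the 3 libraries labelled WT of low mean level. Among neighbours in the order, brain exceeded thymus (exact permutation test, adjusted p = 0.0127). Liver and heart (adjusted p = 0.369), heart and kidney (adjusted p = 0.077) and kidney and brain (adjusted p = 0.127) did not differ beyond their spread in the same exact test. Thymus, bone marrow, small intestine and spleen were likewise not separated from each other. The limma F test over WT tissues gave an adjusted p of 4.3e-05 for Copa I164V, and 9.99e-05 without those libraries.

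Liver had the highest mean at both recoding sites, and the order of the other means differed in the exchange of heart and kidney and in the place of spleen. Heart and kidney were separated at Cog3 and not at Copa, and spleen was not separated from its neighbours at either site. Kidney was within 3.61 percentage points of liver at Cog3, whereas at Copa its mean of 9.47% stood against 30.4% in liver. Within libraries that covered both sites, Cog3 I635V exceeded Copa I164V in 45 of 46, the exception being the second WT heart replicate. The mean difference, Cog3 minus Copa, was 49.6 points ± 3.42 (SD, n = 6) in kidney, 32.2 ± 3.26 (SD, n = 6) in liver, 22.7 ± 5.63 (SD, n = 6) in spleen and 19.3 ± 3.51 (SD, n = 6) in brain. It was 18.1 ± 3.55 (SD, n = 6) in thymus and 16.5 ± 3.15 (SD, n = 6) in bone marrow. A two-sided exact sign-flip permutation test within libraries gave p = 0.03125, the smallest value that 6 pairs can give, in each of these 6 tissues, and an adjusted p of 0.0417 over the 8 tissues. Without the 3 libraries labelled WT of low mean level the adjusted p of this test was 0.05 in 5 of these tissues and 0.0714 in thymus. Those 5 tissues lost no library and kept their values, and 0.05 is the lowest adjusted p then open to them. Thymus kept 5 libraries, too few to reach the threshold. Cog3 was higher in each library of the 6 tissues. In heart the difference was 29.0 points ± 19.1 (SD, n = 6; exact permutation test, adjusted p = 0.0714), with Cog3 higher in 5 of 6 libraries, and 35.3 points without the second WT replicate. Over the 3 heart libraries with more than 100 reads at S154G it was 27.4 points ± 4.98 (SD, n = 3). In small intestine it was 11.7 points ± 9.66 (SD, n = 4; exact permutation test, adjusted p = 0.125), where 4 pairs cannot give a p below 0.125, and 7.02 points without the third WT replicate. Over the 16 group means the levels of the 2 sites had a Pearson r of 0.81 and a Spearman rho of 0.80, given as a description because both genotypes of a tissue enter and both sites were read from the same libraries.

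**Figure D3:**
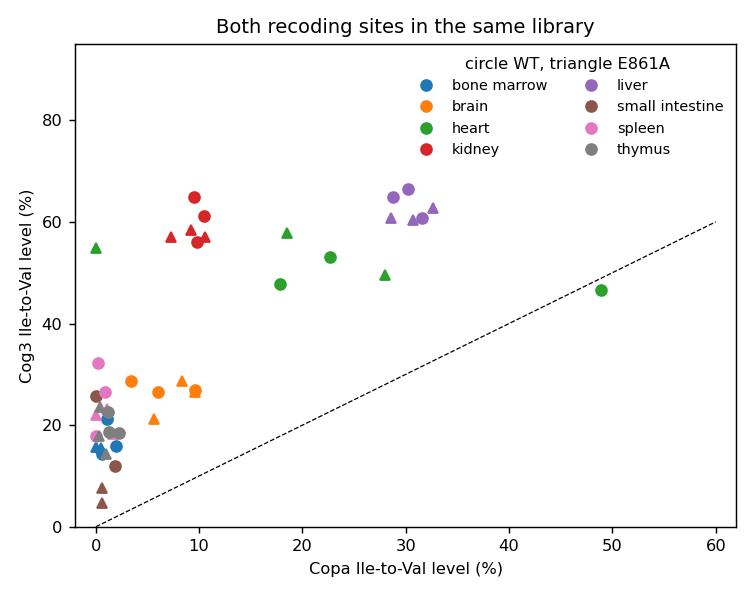
Editing level at Cog3 I635V (y axis, %) against Copa I164V (x axis, %) in the 46 libraries that covered both. Colours are tissues, circles are WT, triangles are E861A, and the dashed line marks equal levels. Only 1 library, the second WT heart replicate, lies below the line, and the kidney libraries lie near 10% on the x axis at levels of Cog3 close to those of liver.

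The question put by the 2 genotypes is how much of the editing at each position was seen without ADAR1 editing activity. At the recoding sites 15 comparisons within a tissue could be tested, 8 for Cog3 and 7 for Copa, since the level of Copa in small intestine, from the reads of a genotype summed over replicates, did not exceed 1% in WT or E861A. None of the 15 was called by limma (adjusted p from 0.418 to 0.974), and 0 of 15 had an unadjusted p under 0.05. The same tests called 27.0% of all positions in bone marrow, 17.1% in kidney, 9.75% in liver and 9.15% in spleen. They called 0 positions in brain, heart, small intestine and thymus, where 56, 21, 2 and 75 positions had an unadjusted p under 0.05 in limma. Without the third WT thymus replicate, the library labelled WT of low mean level, 223 positions were called in thymus. Without the like libraries of heart and small intestine 0 and 2 were called. Called positions outside spleen were all lower in E861A, and in spleen 24 of 26 were lower. The genotypes did not overlap in 2 of the 15 comparisons, Cog3 in small intestine and Copa in thymus, against 30.0% of all comparisons of a position within a tissue.

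The sizes of the differences at Cog3 I635V, E861A minus WT, were small in most tissues against the spread. The difference was 4.97 percentage points in heart (95% interval, -8.28 to 18.2), 0.599 in bone marrow (-14.04 to 15.2) and -1.35 in thymus (-37.4 to 34.7). Without the libraries labelled WT of low mean level it was 3.64 in heart and -2.04 in thymus. It was -1.87 in brain (-21.2 to 17.4), -2.72 in liver (-29.2 to 23.8), -3.28 in kidney (-12.01 to 5.45) and -4.31 in spleen (-15.2 to 6.55). With a library left out these moved, from -8.17 to -0.934 in spleen, -5.66 to -1.15 in kidney, -4.39 to -1.51 in liver and 3.08 to 7.23 in heart, and in bone marrow, brain and thymus they changed sign. The intervals come from limma on percent levels, which draws the spread of a position towards that of other positions of similar level, so at both recoding sites they are not intervals from the replicates of that site alone. In small intestine the WT mean was 24.5% ± 12.1 (SD, n = 3). The E861A mean was 6.14% ± 2.20 (SD, n = 2), a difference of -18.4 points (-77.3 to 40.6; limma, adjusted p = 0.559). A single fit over all 48 libraries, which shares the spread among tissues, called this difference (limma, adjusted p = 0.000164), and the range of adjusted p over the settings tried was 0.000164 to 0.874. Without the second WT replicate the difference was -12.6 points. The smallest WT value there, 11.9%, stood 4.19 points above the highest E861A value.

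At Copa I164V the difference was 0.450 points in liver (-26.5 to 27.4), -0.910 in kidney (-8.14 to 6.32) and 1.53 in brain (-8.07 to 11.1). In heart it was -14.3 points (-60.7 to 32.1), and with a library left out it ran from -20.6 (without the second E861A replicate) to -4.77 (without the second WT replicate), with -6.57 without the third E861A replicate. In bone marrow it was -0.659 (-2.32 to 0.999), in spleen 0.589 (-0.965 to 2.14) and in thymus -0.974 (-3.39 to 1.44; limma, adjusted p = 0.418), or -0.647 without the third WT replicate. With a library left out the difference ran from -1.70 to -0.0268 in kidney, 0.0711 to 3.18 in brain, 0.409 to 1.03 in spleen and -0.951 to -0.377 in bone marrow, and it changed sign in liver. These tests did not detect a genotype difference, and the intervals show how large a difference they leave room for.

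**Figure D4:**
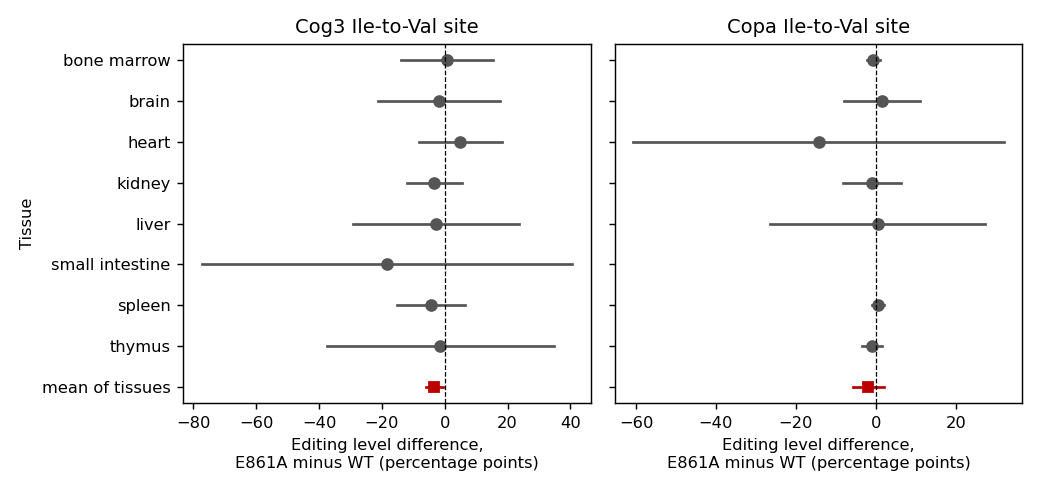
Difference in editing level, E861A minus WT, in percentage points (x axis) for each tissue (y axis) at Cog3 I635V (left) and Copa I164V (right). Grey points and lines are estimates and 95% limma intervals within a tissue, red squares are the mean over tissues, and the dashed line marks no difference. The interval of each tissue includes 0, and only that of the mean over tissues at Cog3, from -5.99 to -0.593, does not.

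Averaged over the 8 tissues in a fit of all 48 libraries, Cog3 I635V was lower in E861A, with a difference of -3.29 points (95% interval, -5.99 to -0.593; limma, adjusted p = 0.0199), in a test that called 21.0% of positions. The genotype difference also varied between tissues at Cog3 (limma interaction F test, adjusted p = 0.0138, with 4.37% of positions called). Both calls rested on small intestine. Without that tissue the average was -1.14 points (-3.39 to 1.12; limma, adjusted p = 0.545) and the interaction had an adjusted p of 0.826. The interaction was also lost without the second WT small intestine replicate (adjusted p = 0.0811) or the third (adjusted p = 0.0698). Without the 3 libraries labelled WT of low mean level the average was -2.83 points (-5.30 to -0.354; limma, adjusted p = 0.0280) and the interaction was not called (limma, adjusted p = 0.0957). The average had an adjusted p of 0.0949 on untransformed levels, over a range of 0.0188 to 0.545 across the settings and a call kept in each of the 46 fits without 1 library. At Copa I164V neither was called: the average was -1.83 points (-5.62 to 1.97; limma, adjusted p = 0.489), or -0.593 without the same 3 libraries, and the interaction had an adjusted p of 0.764.

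The level kept in E861A was set beside that of other positions, as a description. At Cog3 I635V the E861A mean was 103.5% of the WT mean in bone marrow, 110% in heart, 95.8% in liver, 94.6% in kidney, 93.2% in brain, 93.2% in thymus, 83.1% in spleen and 25.1% in small intestine. The median of all other positions with a WT mean of at least 5% was 1.19% in bone marrow, 1.70% in heart, 2.11% in liver and 4.28% in kidney. It was 60.7% in brain, 1.47% in thymus, 2.37% in spleen and 0.868% in small intestine. These medians are over 54 positions in spleen to 386 in brain. Cog3 kept a larger share than 98.6% of the other positions in bone marrow, 98.2% in thymus, 96.1% in heart and 96.0% in small intestine. It kept a larger share than 95.3% in kidney, 92.6% in spleen, 89.2% in liver and 70.2% in brain. Copa I164V reached a WT mean of 5% in 4 tissues. Its E861A mean was 124% of WT in brain, 101.5% in liver, 90.8% in kidney and 52.0% in heart, above 83.4%, 91.2%, 94.3% and 90.6% of the other positions. The heart share rested on single libraries: it was 31.0% without the second E861A replicate, 78.0% without the third E861A replicate and 76.4% without the second WT replicate. Without the libraries labelled WT of low mean level the Cog3 share was 107% in heart, 90.1% in thymus and 32.7% in small intestine.

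**Figure D5:**
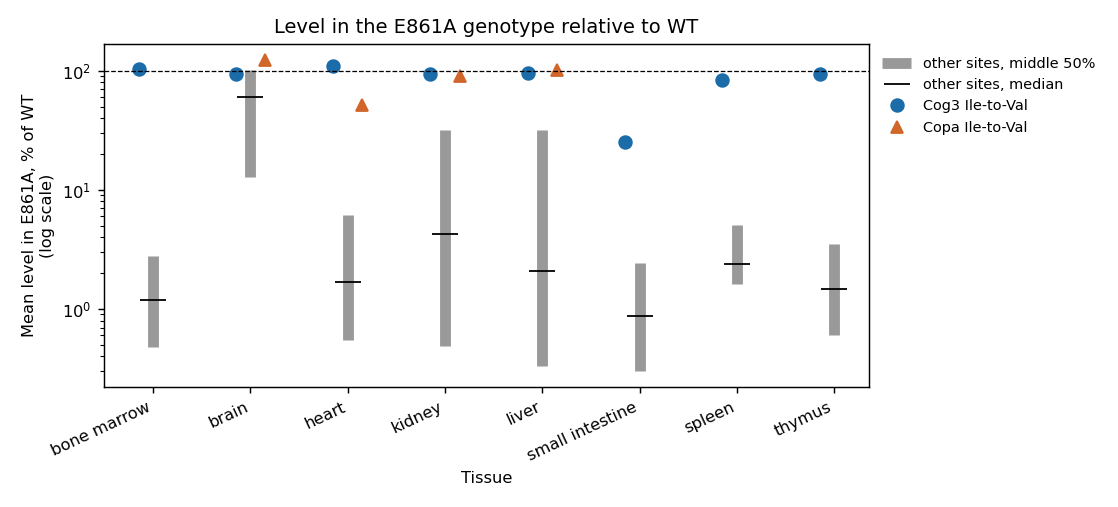
Mean editing level in E861A as a percentage of the mean level in WT (y axis, log scale) by tissue (x axis). Blue circles are Cog3 I635V, orange triangles are Copa I164V in the 4 tissues where its WT mean was at least 5%, grey bars span the middle 50% of all other positions, black marks are their medians, and the dashed line marks 100%. Cog3 lies between 83.1% and 110% in all tissues but small intestine (25.1%).

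The silent position of Cog3, 76119527, is the base just before the recoding adenosine and was edited at a lower level in each of the 47 libraries. Its mean was 10.9% ± 4.17 (SD, n = 6) in heart, 7.78% ± 1.82 (SD, n = 6) in kidney, 6.78% ± 2.13 (SD, n = 6) in liver and 4.13% ± 1.97 (SD, n = 6) in brain. Spleen had 2.70% ± 2.52 (SD, n = 6), thymus 1.93% ± 1.12 (SD, n = 6), small intestine 1.27% ± 1.37 (SD, n = 5) and bone marrow 0.986% ± 1.21 (SD, n = 6). Heart thus had the highest mean here, whereas liver had the highest at the adjacent recoding base. Relative to the recoding site of the same library, the silent site stood at 20.8% ± 6.81 (SD, n = 6) in heart, 15.5% ± 6.67 (SD, n = 6) in brain, 14.3% ± 15.7 (SD, n = 5) in small intestine and 13.2% ± 3.02 (SD, n = 6) in kidney. Spleen had 13.0% ± 14.1 (SD, n = 6), liver 10.8% ± 3.38 (SD, n = 6), thymus 10.3% ± 5.99 (SD, n = 6) and bone marrow 5.10% ± 5.34 (SD, n = 6), so the ranges of the 8 tissues overlapped. Over all libraries this share ran from 0.432% to 40.0%, with a median of 12.3%. The files count each position separately, so it is not known how many reads carried both edits.

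The lysine-to-arginine position K633R, 5 bases before the recoding site in the RNA, reached 3.98% in 1 E861A heart library. Its means were 2.10% ± 1.42 (SD, n = 6) in heart and at most 0.899% in any other tissue. It exceeded 1% in 8 of 47 libraries. K640R lay between 0.0273% and 1.91% and exceeded 1% in 3 of 47 libraries, with 705 edited of 219648 reads in all, a pooled level of 0.321%. Levels this low were seen in both genotypes at both positions. In the limma F test over WT tissues the silent position (adjusted p = 0.0489) and K633R (adjusted p = 0.0408) were called, and neither was called between genotypes, in the 10 tests within tissues (limma, adjusted p from 0.518 to 0.991) or in the average over tissues (limma, adjusted p = 0.76 and 0.85). These calls between tissues were often lost. Without the 3 libraries labelled WT of low mean level neither was called (limma, adjusted p = 0.0652 and 0.203). With a library left out the silent position kept its call in 23 of 46 fits (adjusted p up to 0.103) and K633R in 30 of 46 (up to 0.158), and each kept it in 6 of 11 other settings (up to 0.110 and 0.203).

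Copa S154G, 30 bases upstream of I164V, had 9 edited of 78923 reads over 41 libraries, a pooled level of 0.0114%. It had edited reads in 7 libraries and at most 0.0896% in any of them.

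Of the 36 isoleucine-to-valine positions in the tables, 25 passed the minimum of 100 reads somewhere. Only 7 of the 25 exceeded 10% in any library, and Cog3 and Copa were among these 7. Cog3 had a median level of 26.6% over its libraries and Copa a median of 2.81%.

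Other genes of Golgi transport were counted from a list of 60 names covering the remaining COG subunits, coatomer subunits, ARF proteins, tethers, SNAREs, cargo receptors and COPII. The tables held positions in 33 of them, of which 140 were intronic, 15 in 3′ UTRs and 0 in coding sequence. Only 7 positions, in 2 genes, had more than 100 reads in any library, and 4 positions, all in the 3′ UTR of Golga2, were tested. Golga2 encodes GM130, a matrix protein and vesicle tether of the cis-Golgi. Of 7 tests at these positions limma called 0. Among all positions limma called 27.0% in bone marrow, 17.1% in kidney, 9.75% in liver, 9.15% in spleen and 0% in brain and heart. The unadjusted limma p was under 0.05 in 2 of the 7 tests, both at position 32162270, in brain and in kidney. The called shares rest on adjusted p and are no measure for these 2. Over all positions an unadjusted p under 0.05 was more frequent in kidney than in brain. At position 32162270 of Golga2 the mean level in brain was 59.3% in WT (n = 2) and 0.979% in E861A (n = 3; limma, adjusted p = 0.13), and in kidney it was 1.04% in WT (n = 3) and 0.0% in E861A (n = 3; limma, adjusted p = 0.144). The same position had 2.29% in WT (n = 2) and 0.144% in E861A (n = 3) in bone marrow, and 0.143% and 1.92% (n = 3 each) in liver. Of the other positions, 32162425 had 19.5% in WT (n = 2) and 0.118% in E861A (n = 3) in brain, 32162415 had 4.96% and 0.319% in spleen and 32162432 had 0.390% and 0.771% in heart (n = 3 each). The mean was thus lower in E861A in 5 of the 7 comparisons and higher in 2. The median difference over all tested positions was also negative in each of these tissues, from -0.838 points in brain to -2.82 in bone marrow. In most of the 7 only 1 genotype had a mean above the 1% limit for testing, so their direction is not independent of that filter.

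The pattern of Cog3 and Copa over the 16 groups was compared with 371 positions in 117 other genes that were covered in all groups and exceeded 5% in at least 1 WT tissue. The likeness is Pearson's r over the 16 group means, given as a description. For both genes the closest was a 3′ UTR position of Ecm2, which encodes an extracellular matrix protein (r = 0.85 with Cog3 and 0.84 with Copa). Next came the glutamine-to-arginine recoding position of Flna, which encodes the actin cross-linker filamin A (r = 0.76 and 0.74). An intronic position of Fnbp1 followed for both (r = 0.56 and 0.72). The list of Cog3 closed with 3′ UTR positions of Dclre1c (r = 0.52) and Entpd1 (r = 0.52), and that of Copa with 3′ UTR positions of Ankrd28 (r = 0.60) and Gla (r = 0.58).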

How the data were processed

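Per the labels' processing notes, the authors used STAR and SAMtools with the mm9 genome; versions are not given in the sources used here. The deposited per-library tables give, for each known position, whole-number read counts, total and edited, with the level of editing as a fraction from 0 to 1. Levels were recomputed from the counts. Within a tissue, testing required that 2 replicates of each genotype exceed 100 reads and that the level from the reads of those replicates, summed within a genotype, exceed 0.01 in WT or E861A. log2((level + 0.01) / (1 - level + 0.01)) was fitted with limma 3.58.1 (R 4.3.3; eBayes with a trend), and p-values were adjusted by Benjamini-Hochberg over all positions; 95% intervals came from the same fit on percent levels. Tissues and the recoding sites were compared by exact permutation tests (Python 3.11.15, numpy 2.4.6). Only the fit within a tissue was tried on simulated counts, for brain and kidney and with large changes. The fits over all libraries were not. Sequences and exons were read from mm9 and its GENCODE annotation, and folded with RNAfold 2.7.2. Members, lists and tests were chosen with earlier results of these data known. Named genes were the members, the Golgi list and the 5 genes most like each recoding site. Alternatives covered coverage minimum, offset, scale, trend, edited limit, a replicate block, a quasi-binomial model, the methods' criterion, a shared fit and each library left out. The 2 series-wide tables were not used here.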

Additional observations from a re-analysis of the deposited data

Results flagged for a closer look

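The genotype difference at Cog3 I635V was called as different between tissues, in a call that rested on small intestine. The limma interaction F test over genotype and tissue gave an adjusted p of 0.0138, against 0.764 at Copa I164V. In small intestine the difference, E861A minus WT, was -18.4 percentage points, and in the other 7 tissues the difference lay between -4.31 points (spleen) and 4.97 points (heart). Small intestine had 2 E861A libraries with reads, at 7.69% and 4.58%, and its 3 WT libraries ran from 11.9% to 35.9%. The highest of these, the second WT replicate, had a mean level over all edited positions of 0.978%, inside the E861A range of that tissue (0.506% to 1.33%) and against its WT label, and held 0 reads at Copa I164V. Without it the interaction had an adjusted p of 0.0811 in the same limma F test, and without the third WT replicate 0.0698. The adjusted p was 0.165 on untransformed levels and 0.0957 without the 3 libraries labelled WT of low mean level. Without small intestine the interaction had an adjusted p of 0.826. The part of any single library in this result was not tested beyond leaving it out.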

How the results depend on the processing

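Within a tissue the genotype differences at the recoding sites are raw differences of mean levels, which none of the other settings could change. Their direction under those settings was thus fixed in advance. Of 272 values for these sites under other settings, 251 kept their side of the threshold or, for numbers of tissue pairs, a similar count. The counts of called positions behind the background percentages moved more, from 11 to 253 in bone marrow, 24 to 125 in kidney, 0 to 223 in liver, 4 to 65 in spleen, 0 to 217 in brain, 0 to 29 in heart, 0 to 48 in small intestine and 0 to 94 in thymus. With a library left out they reached 223 in thymus (without WT replicate 3), 12 in brain (without WT replicate 3) and 2 in small intestine (without WT replicate 2), stayed at 0 in heart, and ran from 55 (without WT replicate 1 or 2) to 200 (without WT replicate 3) in kidney, 15 (without E861A replicate 3) to 123 (without WT replicate 1) in liver and 16 (without E861A replicate 3) to 79 (without WT replicate 3) in spleen, and down to 64 in bone marrow (without WT replicate 1). The Cog3 I635V average over tissues (-3.29 points) lost its call on untransformed levels and with no edited limit, and was -1.14 without small intestine. That alternative, a random replicate block, the removal of the 3 libraries labelled WT of low mean level and the subset of heart libraries were chosen after seeing the data. The Cog3 interaction had an adjusted p of 0.165 on untransformed levels, 0.826 without small intestine, 0.0957 without those 3 libraries and 5.5e-05 to 0.0811 with a library left out. The small intestine difference (-18.4 points) was called by the fit over all 48 libraries only. The cause of these changes was not tested beyond the left-out tissue. With WT libraries only, 3 against 3, no tissue pair can reach the threshold, so the 0 pairs at either site carry no information. Cog3 minus Copa in WT was 15.9 points in bone marrow, 21.0 in brain, 50.8 in kidney, 33.8 in liver, 25.1 in spleen and 18.3 in thymus, with 17.9 in small intestine and 19.4 in heart. In that paired test 3 libraries cannot reach the threshold, nor can the 5 that remain when a library is left out, with ranges of 15.7 to 17.1, 18.1 to 20.1, 48.4 to 50.3, 31.4 to 32.9, 20.8 to 23.9 and 17.1 to 19.1 in the same order, 7.02 to 14.3 in small intestine and 23.8 to 35.3 in heart. Without the 3 libraries of low mean level the values were 16.5, 19.3, 49.6, 32.2, 22.7 and 18.5 in that order. None could pass (exact permutation test, adjusted p from 0.05 to 0.0714). The tissues other than thymus in that order lost no library, and 0.05 was the lowest adjusted p open to them. With a library left out, uncalled genotype differences changed sign within these ranges: Cog3 I635V from -1.50 to 2.67 in bone marrow, -3.50 to 0.321 in brain and -3.84 to 0.787 in thymus; Copa I164V from -0.553 to 1.49 in liver; the silent site from -1.10 to 1.08 in brain, -1.31 to 1.23 in kidney, -0.123 to 2.57 in liver and -0.276 to 1.12 in thymus; and K633R from -0.942 to 0.998 in heart and -0.0612 to 0.181 on average. Within a tissue, 2 of 24 pairs of WT and E861A libraries with the same replicate number correlated above 0.1. The same number was the best match in 10 of the 24, among them all pairs of spleen and thymus. Whether libraries of different tissues share a mouse was not tested by this. With a replicate block the Cog3 average was -3.33 points (limma, adjusted p = 0.0214) and no recoding-site call changed. Removal of E861A small intestine replicate 2 or 3 leaves 1 library there, so the site could not be fitted over tissues in those 2 cases.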
